A study of Zea mays with 72 samples.

Results

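The immature leaf 5 of maize (Zea mays, inbred line B73) was compared after 2 h with ZmPep3 and after 2 h with (Z)-3-hexenyl acetate (HAC). ZmPep3 is a plant elicitor peptide, and HAC is a green leaf volatile. The comparison was defined by treatment, leaf and time alone. It set 6 leaf 5 ZmPep3 libraries against 6 leaf 5 HAC libraries, out of 72 libraries in 12 groups in all, and covered all 32235 genes with values, of which 25558 had enough counts to be tested. Seedlings at the V4 stage were cut, and their leaves were separated, cut again under water and rested for at least 2 h in water and at least 2 h more in clean moving air. Detached leaves then received ZmPep3 at about 1 µM in the water they stood in, HAC from dispensers in the air, or no agent in the controls. The dose of HAC was not given in the sources used here, and the agents reached the leaf by different routes, so agent, dose and route cannot be told apart. The leaf 5 controls (6 libraries) and the ZmPep3 and HAC groups of the immature leaf 6 and the mature leaf 4 (6 libraries each) are used for context. All of these groups carried the same wounds from detachment, and leaf 4 also had its sheath removed. The leaf 5 controls have no treatment time in the labels, and each of the 6 replicates was a whole leaf sample.

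Plant elicitor peptides are released from precursor proteins in injured or attacked tissue and are sensed at the cell surface by receptor kinases. In maize they are known to raise jasmonate and ethylene, and with them defence proteins, benzoxazinoids and volatiles. HAC is one of the small volatiles that leaves make from fatty acids within moments of damage. In maize it is known to prime or start jasmonate-related defence and terpene release in leaves that are exposed to it. Both cues therefore lead into jasmonate signalling, and setting one against the other asks in which genes the responses to a dissolved peptide and to an airborne volatile differ.

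Depth was nearly even, with 29885955 to 30039537 counts per ZmPep3 library, 29111330 to 30031872 per HAC library and 29645185 to 30183886 per control library. The first principal component of the 12 libraries, with 39.8% of the variance, ran from 48.7 to 81.9 in the ZmPep3 libraries and from -71.1 to -53.5 in the HAC libraries. ZmPep3 library 1 stood apart on the second component (11.1% of the variance), at -103.3, against 2.5 to 37.4 in the other 5 ZmPep3 libraries and -2.4 to 6.4 in the HAC libraries. That library also had the fewest genes with a count, 24813, against 26015 to 26627 in the others of its group and 25104 to 26238 in the HAC libraries. Results that changed in call or direction without ZmPep3 library 1, alone or together with ZmPep3 library 6, are named below. Without library 1 alone, the call of Bx7 was lost, and the uncalled differences of CYP92C5 and dxs2 changed sign. Photosynthesis genes marked all samples as leaf: 27 genes of the C4 cycle, the Calvin cycle and light harvesting summed to 84770 to 109500 CPM (counts scaled to library size) in the ZmPep3 libraries, 103500 to 113200 CPM in the HAC libraries and 107800 to 124900 CPM in the controls. Of 6 endosperm storage protein genes, 5 had too few counts to test, and the 6 together summed to at most 0.0334 CPM in a ZmPep3 library and 0.0666 CPM in a HAC library. Of 9 ligule, sheath base and meristem genes, 4 had too few counts to test and none of the 5 others passed the test. Histone and cyclin genes summed to 310.0 to 371 CPM after ZmPep3, against 378 to 473 CPM after HAC, but 2 of 21 were lower and 0 higher, a share below that of all tested genes, and their median log2 fold change was 0. The part of this difference in sums in other results was not tested. In whole leaves, fewer cells of a type and less RNA per cell cannot be told apart.

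ZmPep3 and HAC left leaf 5 with clearly different transcript levels after 2 h, and the large differences lay mostly on the ZmPep3 side. Of the 25558 genes tested, 6691 (26.2%) passed an adjusted p of 0.05, with 3735 (14.6%) higher and 2956 (11.6%) lower after ZmPep3 than after HAC. The counts of gene lists below are to be read beside these shares. At least 2-fold differences were found in 1949 of the higher and 389 of the lower genes, and at least 8-fold differences in 425 and 17. The 6 ZmPep3 libraries lay wholly above the 6 HAC libraries in 2154 genes (8.43%) and wholly below them in 817 (3.2%). The median log2 fold change over all genes was -0.04, a value that the scaling of the libraries itself holds near 0. Leaving out ZmPep3 library 1 together with library 6 gave 7153 genes past the threshold, and a fit of the 2 groups alone gave 5661.

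**Figure D1:**
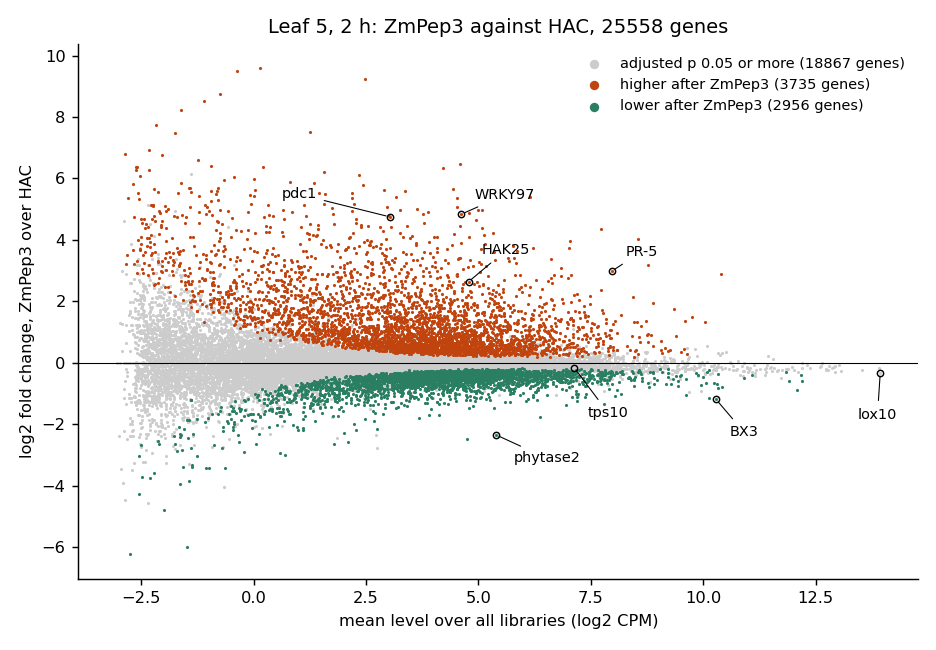
Log2 fold change of ZmPep3 over HAC in leaf 5 at 2 h (vertical) against the average log2 CPM of each gene (horizontal), with 1 point for each of the 25558 genes tested and colours for the 3735 higher and 2956 lower genes. The points reach much further above 0 than below it, as 425 genes were at least 8-fold higher and 17 at least 8-fold lower.

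Genes of WRKY transcription factors, which bind W boxes and control many defence genes, included the largest rise among named genes with no overlap of the groups and a mean of at least 5 CPM in the higher group. Of the 22 tested, 12 were higher and 3 lower after ZmPep3 than after HAC, with a median log2 fold change of 0.77. WRKY97 (NCBI Gene 100280987) had 21.9 to 59.7 CPM (median 42.3) in the ZmPep3 libraries, against 0.885 to 2.23 CPM (median 1.26) in the HAC libraries and 0.896 to 1.96 CPM (median 1.71) in the controls. The ZmPep3 libraries thus stood far above the others, while HAC and control libraries overlapped fully, and the log2 fold change over HAC was 4.84 ± 0.39 (SE, adjusted p = 1.04e-15). WRKY43 had 24.5 to 117 CPM (median 75.5) after ZmPep3, against 3.498 to 5.131 CPM (median 3.99) after HAC, a log2 fold change of 4.15 ± 0.47 (adjusted p = 1.21e-10). WRKY42 had 15.7 to 30.6 CPM (median 18.1) after ZmPep3, against 1.56 to 4.24 CPM (median 2.05) after HAC, a log2 fold change of 3.04 ± 0.31 (adjusted p = 1.69e-12). Against the controls, WRKY43 and WRKY42 had log2 fold changes of 3.81 and 3.04 after ZmPep3, and of -0.35 and 0 after HAC (adjusted p = 0.657 and 0.998). WRKY64 had a different layout, with 67.2 to 103.7 CPM (median 71.8) after ZmPep3, 18.4 to 32.7 CPM (median 23.9) after HAC and 6.50 to 12.4 CPM (median 10.97) in the controls. None of its 3 groups overlapped, and ZmPep3 exceeded HAC by 1.66 ± 0.21 on the log2 scale (adjusted p = 3.32e-09). WRKY116 was one of the 3 lower genes, at 15.2 to 20.4 CPM after ZmPep3, against 21.5 to 28.3 CPM after HAC (log2 fold change -0.54 ± 0.11, adjusted p = 4.44e-05).

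**Figure D2:**
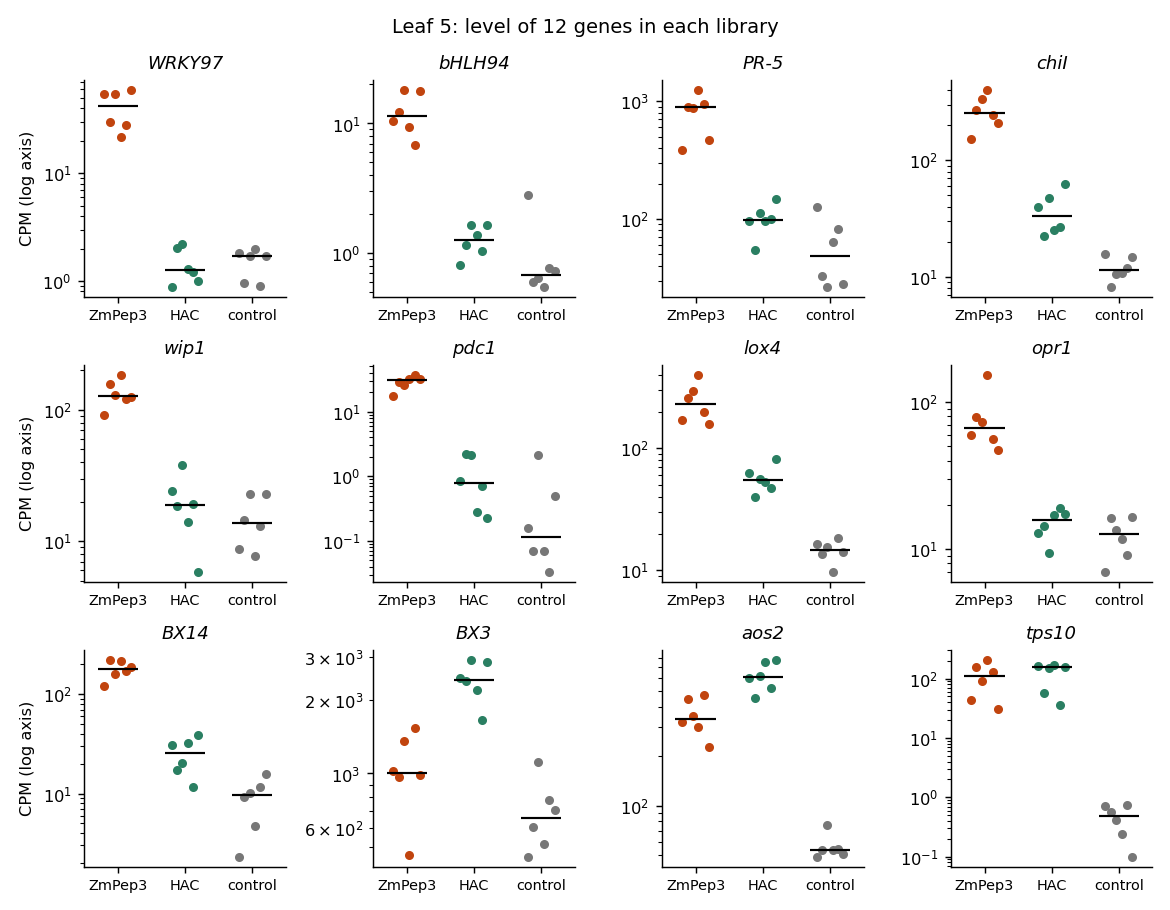
CPM on a log scale in each leaf 5 library, with 6 points each for ZmPep3 at 2 h, HAC at 2 h and control (no time in the labels) from left to right and a bar at each group's median, for 12 genes. In WRKY97 and bHLH94 the HAC points lie among the controls and the ZmPep3 points above them, in lox4 the 3 groups form steps, in BX3 and aos2 the HAC points are the highest, and in tps10 ZmPep3 and HAC share a range far above the controls.

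Ethylene response factors and other AP2/ERF genes moved the same way more often than the opposite: 13 of 37 were higher and 5 lower, with a median of 0.19. The lower count was near the 11.6% of all tested genes that were lower. ERF1, an ethylene response factor, had 12.2 to 18.9 CPM (median 14.0) after ZmPep3, against 0.491 to 3.76 CPM (median 1.79) after HAC, a log2 fold change of 2.91 ± 0.29 (adjusted p = 1.15e-12). EREB58, which in maize is known to act on the promoter of the sesquiterpene synthase gene tps10, had 1.58 to 6.63 CPM (median 3.54) after ZmPep3, against 0 to 0.701 CPM (median 0.340) after HAC (log2 fold change 3.35 ± 0.60, adjusted p = 8.23e-06). Its HAC libraries overlapped the controls (0.141 to 0.659 CPM), while tps10 itself covered the same range after HAC as after ZmPep3, as given below.

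The NAC genes, a plant family of transcription factors active in stress and senescence, counted 9 higher and 2 lower of 25, with a median of 0.46. NAC61 had 49.4 to 74.9 CPM (median 59.1) after ZmPep3, against 15.1 to 27.6 CPM (median 18.3) after HAC and 5.66 to 7.75 CPM in the controls, with a ZmPep3 over HAC log2 fold change of 1.59 ± 0.18 (adjusted p = 1.13e-10). The larger families were more evenly divided, with 10 higher and 8 lower of 51 MYB genes, 8 and 7 of 42 bHLH genes, and 6 and 5 of 32 bZIP genes. These counts lay not far above the shares of all tested genes, 14.6% higher and 11.6% lower, and do not set the families apart. MYB112 had 37.4 to 56.4 CPM (median 38.8) after ZmPep3, against 12.8 to 19.0 CPM (median 14.9) after HAC (log2 fold change 1.44 ± 0.17, adjusted p = 1.52e-10). bHLH94 had 6.87 to 18.2 CPM (median 11.4) after ZmPep3, against 0.814 to 1.66 CPM (median 1.26) after HAC and 0.551 to 2.79 CPM in the controls. Its log2 fold change was 3.29 ± 0.43 (adjusted p = 6.95e-09), the ZmPep3 libraries standing clear of overlapping HAC and control libraries. MYC2a, a bHLH factor of the kind that switches on jasmonate response genes, had 221 to 272 CPM (median 234) after ZmPep3, 117 to 196 CPM (median 134) after HAC and 50.9 to 76.1 CPM (median 63.3) in the controls. Both agents therefore lay above the controls in every library, and ZmPep3 exceeded HAC by 0.72 ± 0.12 on the log2 scale (adjusted p = 1.31e-06).

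Genes for perception and early signalling had more higher than lower calls. Of 13 receptor kinase genes, 5 were higher and 2 lower after ZmPep3 than after HAC, beside 14.6% and 11.6% of all tested genes. WAK-RLK2, a wall-associated receptor-like kinase, had 134 to 250.4 CPM (median 190) after ZmPep3, against 38.7 to 52.1 CPM (median 46.7) after HAC, and its log2 fold change was 2.03 ± 0.14 (adjusted p = 1.44e-18). serk3, a co-receptor kinase of the family that pairs with pattern receptors in Arabidopsis, had 176 to 341 CPM (median 265) after ZmPep3, against 81.8 to 114 CPM (median 98.7) after HAC (1.42 ± 0.13, adjusted p = 8.58e-15). In both genes the HAC libraries lay close to the controls, with log2 fold changes of HAC over control of -0.17 and -0.03 (adjusted p = 0.433 and 0.907). PepR1, named as a receptor of plant elicitor peptides, was near 1 CPM, with 0.551 to 1.43 CPM after ZmPep3 and 0.637 to 1.33 CPM after HAC. Its difference of 0.17 ± 0.42 did not pass the test (adjusted p = 0.814; 95% interval -0.67 to 1.01).

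Among calcium and MAP kinase genes, which carry the first signals inward from the membrane, 11 of 35 were higher and 3 lower. The MAP kinase gene MPK4 had 208 to 333 CPM (median 217) after ZmPep3, against 84.0 to 108 CPM (median 90.6) after HAC (1.35 ± 0.14, adjusted p = 2.48e-12). CDPK1, a calcium-dependent protein kinase gene, had 76.4 to 127 CPM (median 104) after ZmPep3, against 33.0 to 40.4 CPM (median 34.6) after HAC (1.55 ± 0.20, adjusted p = 2.06e-09). In neither gene did the ZmPep3 and HAC libraries overlap. The NADPH oxidase genes rbohC and rbohD, whose products make superoxide outside the cell, had log2 fold changes of 0.86 ± 0.14 (adjusted p = 1.69e-06) and 0.95 ± 0.22 (adjusted p = 0.000444). rbohC had 79.7 to 139 CPM (median 113) after ZmPep3, against 49.0 to 84.1 CPM (median 58.8) after HAC, so that its groups touched at 1 HAC library.

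Several genes for peroxidases, chitinases and glucanases, whose products act on the cell walls of plants or fungi, were far higher after ZmPep3. Of 20 genes of the oxidative burst, peroxidases and antioxidants, 6 were higher and 1 lower, with a median of -0.01. PER70, a peroxidase gene, had 16.6 to 57.9 CPM (median 22.1) after ZmPep3, against 0.739 to 2.09 CPM (median 1.19) after HAC (4.43 ± 0.44, adjusted p = 1.12e-12). PER42, a far more abundant transcript, had 446 to 1693 CPM (median 841) after ZmPep3, against 270 to 415 CPM (median 339) after HAC (1.37 ± 0.23, adjusted p = 2.6e-06). The highest value of both genes came from ZmPep3 library 4, and without that library the log2 fold changes were still above 0, at 4.08 and 1.06.

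The pathogenesis-related and antimicrobial genes counted 8 higher and 1 lower of the 15 tested, with a median log2 fold change of 1.00. PR-5, a thaumatin-like protein gene, had 384 to 1256 CPM (median 886) after ZmPep3, against 54.7 to 149 CPM (median 98.4) after HAC and 26.6 to 126 CPM (median 48.6) in the controls. Its log2 fold change of ZmPep3 over HAC was 2.99 ± 0.41 (adjusted p = 2.78e-08), and HAC over control did not pass the test (0.75, adjusted p = 0.183). The chitinase genes chn1 and chiI had log2 fold changes of 2.69 ± 0.30 (adjusted p = 3.93e-11) and 2.86 ± 0.34 (adjusted p = 5.05e-10). chiI had 152 to 407 CPM (median 258) after ZmPep3, against 22.2 to 62.7 CPM (median 33.4) after HAC and 8.196 to 15.57 CPM in the controls, so its groups formed 3 separate steps. The beta-1,3-glucanase gene geb1 had 65.1 to 277 CPM (median 122) after ZmPep3, against 6.08 to 15.8 CPM (median 8.52) after HAC (3.80 ± 0.64, adjusted p = 2.81e-06).

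mir3, a cysteine protease gene, lay the other way, with 1048 to 1538 CPM (median 1136) after ZmPep3, against 1840 to 2375 CPM (median 2063) after HAC. The controls, at 1231 to 1876 CPM (median 1472), reached into both ranges, and ZmPep3 was lower than HAC by a log2 fold change of -0.78 ± 0.12 (adjusted p = 4.24e-07).

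Proteinase inhibitors, which slow the digestion of plant protein by insects, showed 6 higher and 0 lower genes of 13 (median 0.24). wip1, a Bowman-Birk inhibitor induced by wounding, had 91.0 to 185 CPM (median 127) after ZmPep3, against 5.84 to 38.1 CPM (median 18.8) after HAC and 7.75 to 22.7 CPM (median 13.8) in the controls. The ZmPep3 libraries were separate, the HAC and control libraries overlapped, and the log2 fold change over HAC was 2.75 ± 0.42 (adjusted p = 2.86e-07). MPI, the maize proteinase inhibitor, gave another picture, with 103 to 307 CPM (median 263) after ZmPep3, 159 to 377 CPM (median 243) after HAC and 36.8 to 54.9 CPM (median 43.5) in the controls. Its ZmPep3 and HAC libraries overlapped almost fully (-0.16 ± 0.33, adjusted p = 0.773; 95% interval -0.82 to 0.50), and both stood above every control library.

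Jasmonate genes were not a single block. A list of 20 genes held 13-lipoxygenases, allene oxide synthases, allene oxide cyclases and oxophytodienoate reductases, families that include enzymes of jasmonate synthesis. Of these genes, 10 were higher and 3 lower after ZmPep3 than after HAC (median 0.39). The 13-lipoxygenase genes ts1, which acts in jasmonate synthesis, and lox9 had log2 fold changes of 0.78 ± 0.18 (adjusted p = 0.000345) and 1.29 ± 0.16 (adjusted p = 1.65e-09). lox9 had 64.5 to 105 CPM (median 91.3) after ZmPep3, 27.8 to 52.6 CPM (median 33.2) after HAC and 15.1 to 20.8 CPM (median 17.9) in the controls. opr1, an oxophytodienoate reductase gene, had 47.2 to 153 CPM (median 66.1) after ZmPep3, against 9.36 to 19.2 CPM (median 15.7) after HAC (2.38 ± 0.36, adjusted p = 3.55e-07). opr7, the reductase gene known for jasmonate synthesis in maize, did not follow, with 85.8 to 139 CPM (median 127) after ZmPep3, 97.1 to 176 CPM (median 128) after HAC and 29.8 to 43.4 CPM (median 37.9) in the controls. Its ZmPep3 over HAC difference was -0.09 ± 0.15 (adjusted p = 0.708; 95% interval -0.38 to 0.21), while both agents lay above all controls.

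aos2, an allene oxide synthase gene at the entry to jasmonates, was higher after HAC. It had 228 to 475 CPM (median 338) after ZmPep3, 454 to 776 CPM (median 609) after HAC and 48.5 to 75.7 CPM (median 53.4) in the controls. The ZmPep3 and HAC libraries overlapped at the edge, and the log2 fold change was -0.80 ± 0.24 (adjusted p = 0.00769). Without ZmPep3 libraries 1 and 6 it was -0.65 and no longer passed the test (adjusted p = 0.0612).

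HAC itself belongs to the green leaf volatiles, which a branch of its own makes. lox10, the lipoxygenase of that branch in maize, had 11440 to 16430 CPM (median 14400) after ZmPep3 and 15260 to 20730 CPM (median 18370) after HAC, against 4607 to 10230 CPM (median 6762) in the controls. The difference between the agents did not pass the test (-0.33 ± 0.18, adjusted p = 0.17; 95% interval -0.67 to 0.02). hpl1, the hydroperoxide lyase gene of the same branch, had 826 to 1384 CPM (median 997) after ZmPep3, against 1318 to 1815 CPM (median 1643) after HAC (-0.66 ± 0.16, adjusted p = 0.00111). Per unit of transcript length, lox10 was abundant in both groups, with a median of 4756 FPKM (fragments scaled to transcript length and library size) after ZmPep3 and 5943 FPKM after HAC, beside 200.2 FPKM and 366 FPKM for aos2.

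The 9-lipoxygenases make a parallel set of oxylipins. A list of 7 genes for 9-lipoxygenases and other lipoxygenases had 1 higher and 1 lower gene, near the shares of all tested genes (14.6% and 11.6%). The lower one was lox6 (-0.83 ± 0.23, adjusted p = 0.00377). lox4 was the higher one, at 159 to 402 CPM (median 230.0) after ZmPep3, 39.7 to 81.8 CPM (median 54.7) after HAC and 9.71 to 18.4 CPM (median 14.8) in the controls (2.12 ± 0.25 over HAC, adjusted p = 3.15e-10). lox5, which is closely related to it in sequence, had 1261 to 2911 CPM (median 2354) after ZmPep3, 2151 to 4569 CPM (median 3033) after HAC and 60.0 to 135 CPM (median 71.8) in the controls. Here the agents were not distinguished (-0.41 ± 0.31, adjusted p = 0.364; 95% interval -1.04 to 0.22). Reads of near-identical copies are shared out by estimation in these counts, so the levels of such pairs are less certain than those of single genes.

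The TIFY genes include the JAZ repressors, which are both targets and brakes of jasmonate signalling. Of 21 tested, 7 were higher and 2 lower after ZmPep3 than after HAC, with a median of 0.16. TIFY20 had 6.83 to 13.1 CPM (median 8.91) after ZmPep3, 1.87 to 3.74 CPM (median 2.71) after HAC and 0.256 to 0.563 CPM (median 0.490) in the controls, 3 separate steps with a ZmPep3 over HAC log2 fold change of 1.76 ± 0.24 (adjusted p = 1.92e-08). TIFY9 and TIFY28 had the same layout, with ZmPep3 over HAC log2 fold changes of 1.66 ± 0.27 (adjusted p = 1.15e-06) and 1.03 ± 0.27 (adjusted p = 0.00227). TIFY1 lay the other way, at 3.63 to 9.36 CPM (median 6.86) after ZmPep3, against 6.80 to 18.7 CPM (median 12.4) after HAC (-0.86 ± 0.32, adjusted p = 0.0369). This call was lost when any of 7 single libraries was left out, ZmPep3 libraries 2, 3 and 4 and HAC libraries 3, 4, 5 and 6, with adjusted p up to 0.123.

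Genes for terpene volatiles, which draw enemies of herbivores to damaged maize, were above the controls after both agents, with no difference called between them. None of 10 genes for terpene synthases and homoterpene enzymes passed the test between ZmPep3 and HAC, in either direction, and their median was -0.12. All 10 were higher than in the controls after each agent, with median log2 fold changes over control of 3.27 after ZmPep3 and 3.31 after HAC, where 22.4% and 9.59% of all tested genes were called higher. In all, ZmPep3 against control called 45.4% of the tested genes (23.0% lower), and HAC against control called 16.9% (7.26% lower). These comparisons over the controls share the 6 control libraries, and share the treated libraries with the direct comparison, so the values only stand side by side.

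tps10, which makes the main sesquiterpenes of insect-fed maize, had 30.8 to 207 CPM (median 109) after ZmPep3, 36.2 to 169 CPM (median 154) after HAC and 0.0992 to 0.730 CPM (median 0.489) in the controls. The agents' libraries covered the same range, with a difference of -0.17 ± 0.48 (adjusted p = 0.839; 95% interval -1.13 to 0.79), and stood above the controls by log2 fold changes of 7.87 after ZmPep3 and 8.03 after HAC. The terpene synthase gene TPS2, which makes the precursors of homoterpenes, had 196 to 552 CPM (median 375) after ZmPep3, 269 to 564 CPM (median 395) after HAC and 25.4 to 62.2 CPM (median 38.1) in the controls. CYP92C5, the cytochrome P450 that finishes the homoterpene DMNT, had 224 to 310.1 CPM (median 241) after ZmPep3, 162 to 413 CPM (median 223) after HAC and 12.9 to 31.2 CPM (median 25.03) in the controls. The intervals of the differences were -0.66 to 0.40 for TPS2, -0.43 to 0.50 for CYP92C5 and -0.12 to 1.07 for TPS3, on the log2 scale. Differences within these bounds are not excluded at 6 libraries a group.

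Genes for the nitrogen-containing volatiles gave 2 higher and 2 lower of 8, beside 14.6% and 11.6% of all tested genes. AAMT1, which makes methyl anthranilate, had 130 to 262 CPM (median 209) after ZmPep3, 150 to 311 CPM (median 211) after HAC and 3.92 to 9.82 CPM (median 8.01) in the controls (-0.11 ± 0.26 between the agents, adjusted p = 0.809; 95% interval -0.64 to 0.42). AAMT3, of the same methyltransferase family, was lower after ZmPep3, at 49.7 to 104 CPM (median 82.6), against 117 to 161 CPM (median 140) after HAC, with no overlap (-0.79 ± 0.17, adjusted p = 0.000174). Igl, the indole-3-glycerol phosphate lyase gene that releases free indole, had 107 to 213 CPM after ZmPep3, 107 to 209 CPM after HAC and 89.1 to 137 CPM in the controls. Its difference between the agents was -0.07 ± 0.25 (adjusted p = 0.866). dxs2, at the entry of the plastid isoprenoid pathway, had 89.4 to 301 CPM (median 117) after ZmPep3, 104 to 243 CPM (median 138) after HAC and 9.23 to 21.4 CPM (median 11.5) in the controls (0.17 ± 0.26 between the agents, adjusted p = 0.697; 95% interval -0.36 to 0.70). Without ZmPep3 libraries 1 and 6 its difference turned to -0.50 (adjusted p = 0.159), and the differences of tps10, TPS2 and MPI also changed sign while staying short of the threshold. Without ZmPep3 library 6 alone, those of tps10 and TPS2 were 0.03 and 0.00.

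**Figure D3:**
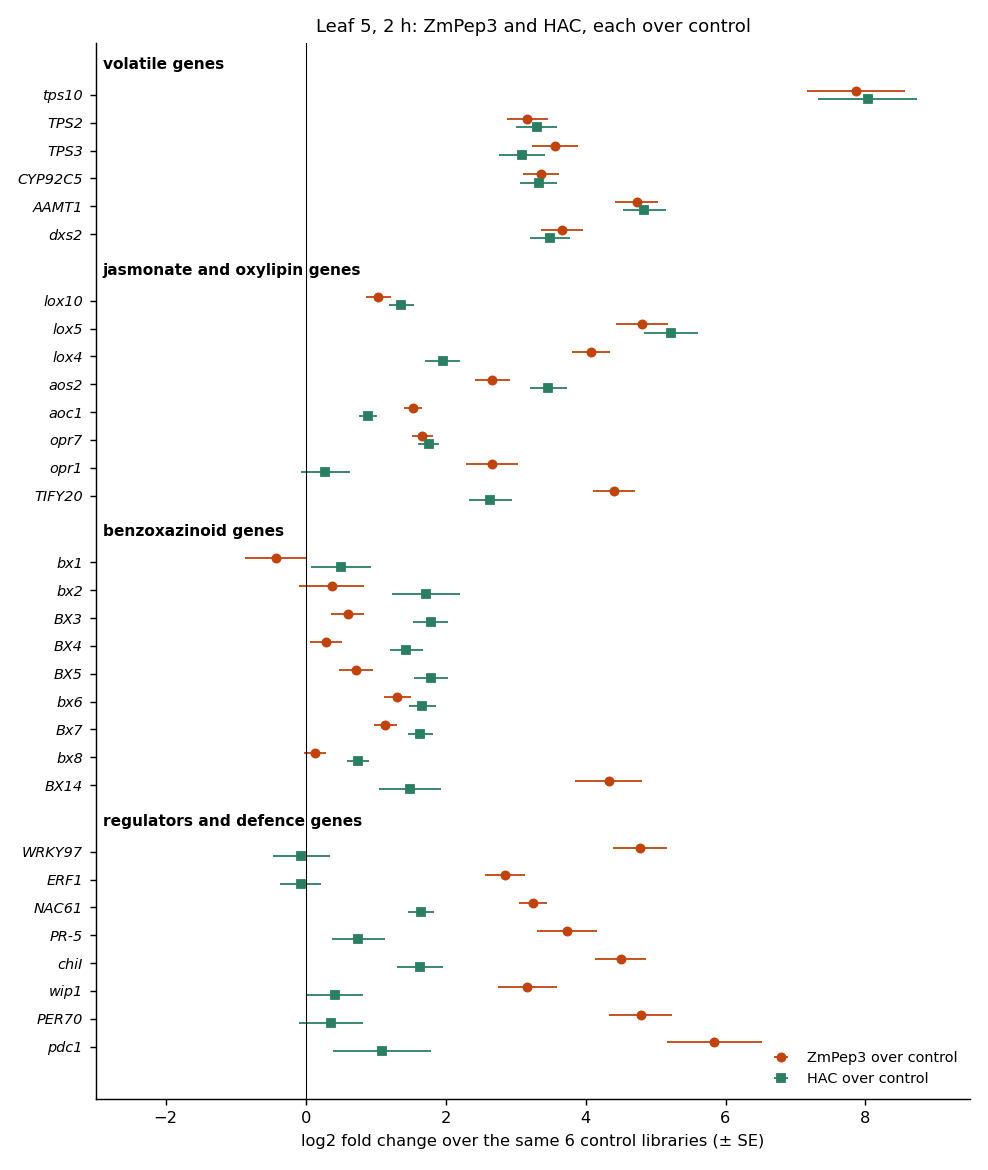
Log2 fold changes over the shared leaf 5 controls after ZmPep3 (upper mark of each pair) and after HAC (lower mark), with bars of 1 SE, for genes of 4 groups. WRKY97, PR-5 and wip1 are high after ZmPep3, at 4.78, 3.74 and 3.17, and lower after HAC, at -0.06, 0.75 and 0.42, the volatile genes tps10 and AAMT1 are high after both, and BX3, BX4 and BX5 are higher after HAC.

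Benzoxazinoids, the cyclic hydroxamic acids that protect maize against insects and fungi, had more lower than higher genes. Of 13 genes, 6 were lower, 1 was higher and 6 were not called after ZmPep3 against HAC (median -0.63), and the calls of bx2 and Bx7 among the lower ones depended on the setting, as given below. The genes BX3, BX4 and BX5 code for cytochromes P450 that act in a row on indole-derived intermediates. BX3 had 464 to 1531 CPM (median 1008) after ZmPep3, 1660 to 2923 CPM (median 2423) after HAC and 455 to 1116 CPM (median 658) in the controls. The HAC libraries lay above both other groups, and the log2 fold change of ZmPep3 over HAC was -1.19 ± 0.24 (adjusted p = 9.29e-05). BX4 and BX5 gave -1.15 ± 0.23 (adjusted p = 9.44e-05) and -1.07 ± 0.24 (adjusted p = 0.000344), also with no overlap. Over the controls, BX3, BX4 and BX5 had log2 fold changes of 0.60, 0.29 and 0.72 after ZmPep3 (adjusted p = 0.0354, 0.322 and 0.00942), and of 1.79, 1.44 and 1.79 after HAC.

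Earlier and later steps varied more. bx1, the indole-forming first step, had 47.7 to 155 CPM (median 116) after ZmPep3 and 107 to 358 CPM (median 210.0) after HAC, and did not pass the test (-0.93 ± 0.43, adjusted p = 0.104; 95% interval -1.78 to -0.07). The P450 gene bx2 had 21.9 to 245 CPM (median 177) after ZmPep3 and 202 to 657 CPM (median 421) after HAC (-1.35 ± 0.48, adjusted p = 0.0291), a call that was lost in a fit of the 2 groups alone (adjusted p = 0.0515) and without ZmPep3 library 2 or 4 or HAC library 3. bx8, a glucosyltransferase gene, had 133 to 175 CPM (median 163) after ZmPep3, against 197 to 287 CPM (median 246) after HAC (-0.63 ± 0.16, adjusted p = 0.00147). Bx7, an O-methyltransferase gene, gave -0.50 ± 0.17 (adjusted p = 0.0248), and this call was lost without ZmPep3 libraries 1 and 6 (adjusted p = 0.274), in a fit of the 2 groups alone (0.0693), and without ZmPep3 library 1, 4 or 6 or HAC library 6 singly (up to 0.0931).

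BX14 was the member with the opposite difference. It codes for an O-methyltransferase that acts late, on benzoxazinoid glucosides already made. It had 121 to 223 CPM (median 179) after ZmPep3, 11.6 to 38.9 CPM (median 25.6) after HAC and 2.29 to 15.8 CPM (median 9.64) in the controls. The ZmPep3 libraries stood clear of both other groups, with a log2 fold change over HAC of 2.84 ± 0.45 (adjusted p = 7.96e-07).

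Ethylene is the hormone that acts beside jasmonate in many defence responses. Of 6 ethylene synthesis and receptor genes, 4 were higher and 0 lower (median 1.01). ACO31, an ACC oxidase gene of the last step of ethylene synthesis, had 66.0 to 125 CPM (median 115) after ZmPep3, 12.4 to 27.2 CPM (median 18.1) after HAC and 1.10 to 4.45 CPM (median 3.51) in the controls. Its groups formed 3 steps, with 2.54 ± 0.42 between the agents (adjusted p = 2.59e-06). acs7, an ACC synthase gene of the step before, had 32.0 to 45.1 CPM (median 43.7) after ZmPep3, against 10.8 to 21.3 CPM (median 12.7) after HAC (1.45 ± 0.25, adjusted p = 5.45e-06).

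Of 30 cytokinin genes, 9 were higher and 5 lower. CKX4, a cytokinin oxidase gene whose product breaks the hormone down, had 43.9 to 115 CPM (median 68.1) after ZmPep3, 7.93 to 12.8 CPM (median 11.2) after HAC and 1.79 to 5.49 CPM (median 3.21) in the controls (2.82 ± 0.27 between the agents, adjusted p = 1.92e-13). HK1b1, a histidine kinase gene of cytokinin perception, had 3.30 to 8.02 CPM (median 4.69) after ZmPep3, against 10.1 to 13.6 CPM (median 11.7) after HAC (-1.26 ± 0.16, adjusted p = 1.87e-09). Its HAC over control difference did not pass the test (-0.31, adjusted p = 0.168).

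For abscisic acid, 7 of 21 genes were higher and 2 lower. vp14, the dioxygenase gene of the rate-limiting cleavage step, had 12.7 to 28.7 CPM (median 13.8) after ZmPep3, against 3.02 to 8.51 CPM (median 5.57) after HAC (1.56 ± 0.48, adjusted p = 0.00993). PYL5, an abscisic acid receptor gene, had 1.97 to 24.9 CPM (median 10.3) after ZmPep3, against 0.495 to 4.94 CPM (median 2.32) after HAC and 0.448 to 12.2 CPM (median 10.9) in the controls. Its difference between the agents was 2.23 ± 0.57 (adjusted p = 0.00189), with the HAC side below the controls (-1.93, adjusted p = 0.0111) and the ZmPep3 side not distinguished from them (0.30, adjusted p = 0.677). Auxin genes had 8 higher and 12 lower of 47 (median -0.22), the higher count being near the 14.6% of all tested genes that were higher. The auxin response factor genes ARF10 and ARF17 differed in opposite directions, at 0.98 ± 0.10 (adjusted p = 6.46e-12) and -1.13 ± 0.16 (adjusted p = 7.78e-08), each with no overlap between the groups. Of 8 gibberellin genes, 0 were higher and 1 was lower, the latter near the 11.6% of all tested genes that were lower.

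A pair of enzymes of energy metabolism stood among the 15 largest rises of named genes with no overlap and at least 5 CPM in the higher group. pdc1, a pyruvate decarboxylase of alcoholic fermentation, had 17.3 to 37.3 CPM (median 30.6) after ZmPep3, 0.223 to 2.18 CPM (median 0.784) after HAC and 0.0332 to 2.14 CPM (median 0.114) in the controls (4.75 ± 0.63 over HAC, adjusted p = 9.9e-09). aox3, a mitochondrial alternative oxidase, had 14.1 to 32.5 CPM (median 19.4) after ZmPep3, 0.447 to 1.70 CPM (median 0.869) after HAC and 0 to 0.516 CPM (median 0.170) in the controls (4.45 ± 0.55 over HAC, adjusted p = 1.54e-09). In both genes the ZmPep3 libraries shared no value with the other groups, and the list of fermentation and alternative oxidase genes counted 4 higher and 0 lower of 8.

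Detoxification, wall phenolics and protein folding had calls in 1 direction. Glutathione transferases, which attach glutathione to toxic compounds, had 9 higher and 0 lower of 32, and gst24 reached 77.6 to 160 CPM (median 112) after ZmPep3, against 17.3 to 33.1 CPM (median 24.0) after HAC (2.24 ± 0.25, adjusted p = 1.01e-10). The phenylpropanoid and lignin list had 5 higher and 0 lower of 19, among them the 4-coumarate:CoA ligase gene 4CL at 566 to 757 CPM (median 658) after ZmPep3, against 239 to 278 CPM (median 266) after HAC (1.33 ± 0.13, adjusted p = 1.4e-13). Folding and quality control of the endoplasmic reticulum had 7 higher and 0 lower of 19, with the chaperone gene bip1 at 139 to 552 CPM (median 339) after ZmPep3 and 92.9 to 180.0 CPM (median 129) after HAC (1.28 ± 0.20, adjusted p = 4.06e-07). For bip1 the groups overlapped, unlike those of gst24 and 4CL.

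Transporters and carbohydrate enzymes included the difference with the smallest adjusted p among the genes named here. HAK25, a potassium transporter gene, had 51.3 to 81.9 CPM (median 60.7) after ZmPep3, 7.84 to 13.7 CPM (median 10.2) after HAC and 11.4 to 15.8 CPM (median 12.7) in the controls (2.64 ± 0.14 over HAC, adjusted p = 7.99e-24). Phosphate and potassium transporter genes gave 9 higher and 4 lower of 28, and the phosphate transporter gene pht1 had 1290 to 1848 CPM (median 1679) after ZmPep3, against 542 to 904 CPM (median 584) after HAC (1.31 ± 0.17, adjusted p = 1.52e-09). incw1, a cell wall invertase gene that splits sucrose outside the cell, had 55.2 to 165 CPM (median 89.8) after ZmPep3, against 21.5 to 33.8 CPM (median 27.0) after HAC (1.80 ± 0.21, adjusted p = 2.7e-10). Its list had 2 higher and 4 lower of 20, beside 14.6% and 11.6% of all tested genes.

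Other lists had more lower than higher members after ZmPep3. Of 8 clock and CONSTANS-like genes, which follow day length, 7 were lower and 0 higher (median -0.47). COL8 had 22.9 to 42.1 CPM (median 29.9) after ZmPep3, 54.6 to 70.3 CPM (median 65.3) after HAC and 74.8 to 114 CPM (median 91.6) in the controls (-1.03 ± 0.16 between the agents, adjusted p = 8.71e-07). The hour of harvest of each group is not in the labels, so a shift in time of day cannot be told apart from the treatments for these genes. Aquaporins, the water channels, had 7 lower and 0 higher of 25, and NIP2-1 had 214 to 446 CPM (median 361) after ZmPep3, 416 to 572 CPM (median 529) after HAC and 168 to 199 CPM (median 176) in the controls. Its difference of -0.56 ± 0.15 (adjusted p = 0.00346) was -0.39 without ZmPep3 libraries 1 and 6 (adjusted p = 0.0651). Autophagy genes had 2 higher and 6 lower of 14, with Atg8e, a ubiquitin-like protein of the autophagosome membrane, at 28.0 to 37.9 CPM (median 32.6) after ZmPep3, against 44.8 to 55.8 CPM (median 49.0) after HAC (-0.59 ± 0.11, adjusted p = 2.82e-05). Cell wall expansion and cellulose genes had 8 lower and 3 higher of 33. Photosynthesis genes had 2 lower and 0 higher of 27 (median -0.19), a share below the 11.6% of all tested genes that were lower.

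**Figure D4:**
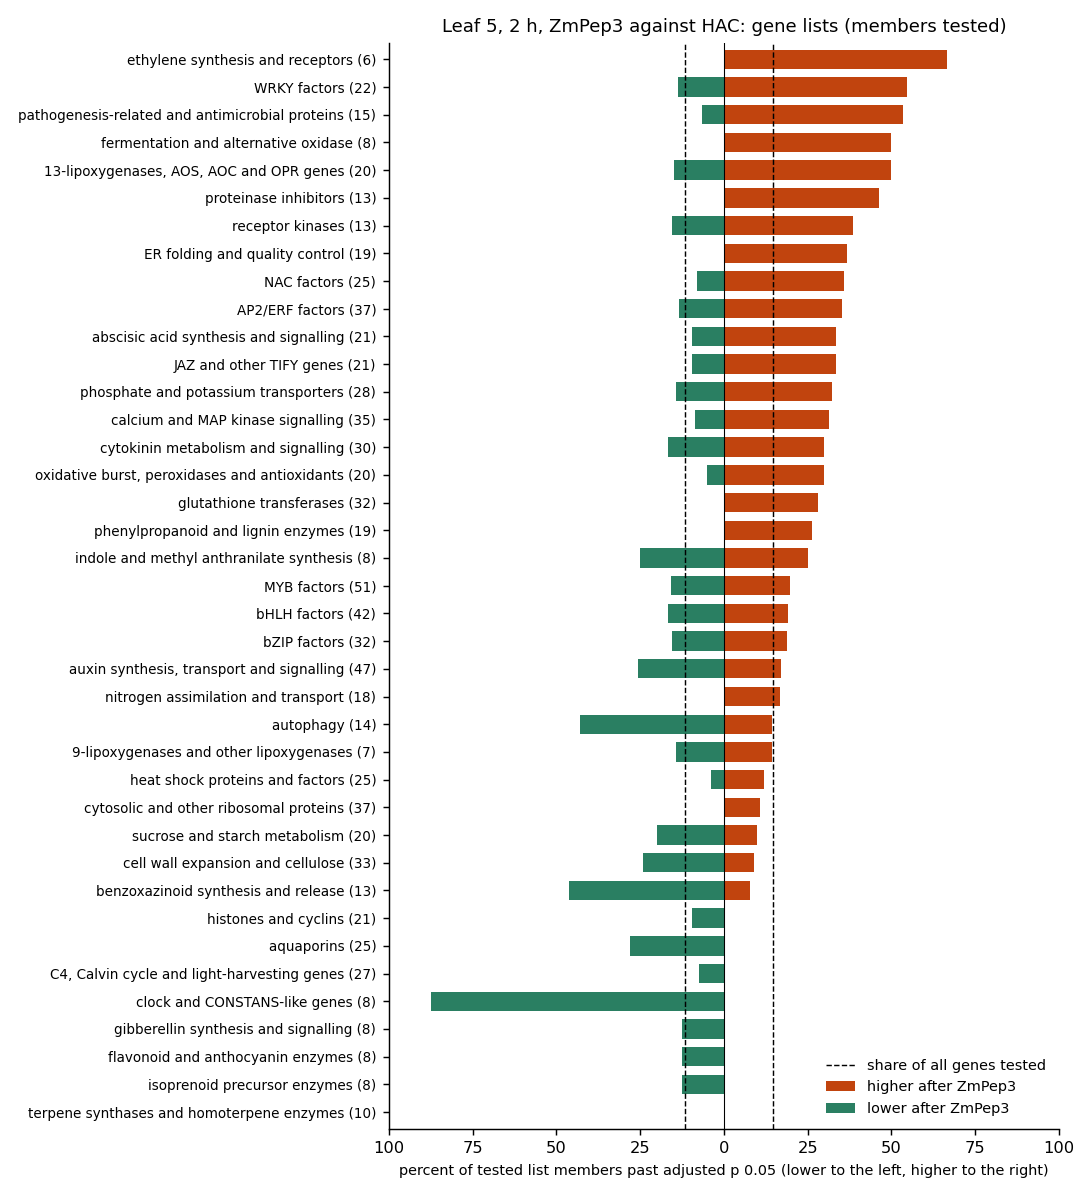
Percent of each gene list's tested members that were higher (right) and lower (left) after ZmPep3 than after HAC in leaf 5, with the number tested beside each list, and dashed lines at the 14.6% of all tested genes that were higher and the 11.6% that were lower. WRKY, ethylene, proteinase inhibitor and pathogenesis-related genes reach far to the right, and clock, benzoxazinoid and autophagy genes far to the left.

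Of the genes that separated completely with at least 5 CPM in the higher group, 185 higher and 95 lower ones carried a name, while 1514 and 585 had only a locus number. Among the largest rises of these named genes was GNAT32, an acetyltransferase family gene, at 6.33 to 13.8 CPM (median 10.6) after ZmPep3, against 0.457 to 0.850 CPM (median 0.620) after HAC (4.00 ± 0.51, adjusted p = 3.08e-09). CNR7 had 21.5 to 98.9 CPM (median 43.6) after ZmPep3, against 1.80 to 3.93 CPM (median 3.55) after HAC (3.90 ± 0.43, adjusted p = 3.39e-11). Among their largest falls was phytase2, a phytase gene, at 0.588 to 8.27 CPM (median 3.70) after ZmPep3, 9.67 to 40.3 CPM (median 17.1) after HAC and 0.364 to 1.65 CPM (median 0.845) in the controls (-2.34 ± 0.46 between the agents, adjusted p = 5.08e-05). BURP5 had 2.70 to 5.29 CPM (median 4.56) after ZmPep3, 10.8 to 17.4 CPM (median 13.2) after HAC and 15.1 to 23.2 CPM (median 17.1) in the controls (-1.71 ± 0.17 between the agents, adjusted p = 8.67e-13). In phytase2 the HAC libraries thus stood far above the controls, and in BURP5 the ZmPep3 libraries stood below them. Of the genes with only a locus number, 2 were chosen after their values were seen. LOC100282584 had 37.3 to 51.4 CPM (median 42.0) after ZmPep3, against 0 to 0.149 CPM (median 0.0704) after HAC, so that the size of its fold change rests on very few HAC counts. LOC100285015 had 1.10 to 4.21 CPM (median 2.78) after ZmPep3, against 5.66 to 40.1 CPM (median 11.4) after HAC (-2.47 ± 0.39, adjusted p = 9.31e-07).

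The same contrast of ZmPep3 against HAC at 2 h differed from that in leaf 4 for many genes, and from that in leaf 6 for few. The difference between the contrasts of leaf 5 and leaf 4 passed the test in 1793 genes (7.02%), 1104 (4.32%) with a higher and 689 (2.7%) with a lower log2 fold change in leaf 5. For leaf 5 against leaf 6 it was 151 genes (0.591%), 65 higher and 86 lower (0.254% and 0.336%), with 2845 genes at an unadjusted p below 0.05 and 302 by DESeq2. Taken alone, the contrast called 7979 genes (31.2%) in leaf 4 and 4926 (19.3%) in leaf 6. In leaf 4 the split was 3882 higher and 4097 lower (15.2% and 16.0%), but 3308 and 4791 without the filter on low counts and 4173 and 3040 in a fit of the 2 groups alone. In leaf 6 it was 3279 and 1647 (12.8% and 6.44%), but 3006 and 2193 with DESeq2 size factors and 3521 and 2751 in a fit of the 2 groups alone. For the difference between leaf 5 and leaf 6, the same alternatives gave 101 and 63, and 186 and 92, so the balance of higher and lower genes turned with the setting.

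Jasmonate and volatile genes were among those whose contrast differed between leaf 5 and leaf 4. Of 21 TIFY genes, 15 had a lower ZmPep3 over HAC log2 fold change in leaf 5 than in leaf 4 and 0 a higher one. In aos2 the log2 fold change was -0.80 in leaf 5 and 2.70 in leaf 4, a difference of -3.5 ± 0.34 (adjusted p = 1.21e-10). In leaf 4, aos2 had 116 to 343 CPM (median 169) after ZmPep3, against 13.9 to 46.3 CPM (median 31.04) after HAC, so its HAC level there lay far below that of leaf 5. Similar differences were found for lox5 (-2.78 ± 0.45, adjusted p = 1.41e-05), AAMT1 (-2.73 ± 0.38, adjusted p = 8.39e-07), dxs2 (-2.09 ± 0.38, adjusted p = 8.85e-05), CYP92C5 (-1.85 ± 0.33, adjusted p = 8.13e-05) and TIFY29 (-3.99 ± 0.65, adjusted p = 1.62e-05). In each of these genes ZmPep3 exceeded HAC in leaf 4, by log2 fold changes of 2.37, 2.62, 2.26, 1.89 and 4.66, whereas in leaf 5 none of them passed the test. Ann9, an annexin gene, was alike, at -0.19 ± 0.20 in leaf 5 (adjusted p = 0.54) and 2.85 in leaf 4 (difference -3.04 ± 0.31, adjusted p = 2.27e-10). The benzoxazinoid genes BX3, BX4 and BX5 were near 0 in leaf 4, at -0.08, -0.05 and 0.16, and the differences from leaf 5 passed the test (adjusted p = 0.0316, 0.026 and 0.0128). Leaf 6 resembled leaf 5 here: 9 of the 13 benzoxazinoid genes were lower and 1 higher (median -0.70), beside 6.44% and 12.8% of all tested genes. For leaf 5 minus leaf 6, 0 of the 13 passed the test.

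Other genes, chosen after their values were seen, had a larger ZmPep3 over HAC value in leaf 5 than in leaf 4. WRKY97 had 4.84 in leaf 5 and 2.67 in leaf 4 (difference 2.16 ± 0.49, adjusted p = 0.00216), and PER70 4.43 and 1.81 (2.62 ± 0.66, adjusted p = 0.00629). gst24 had 2.24 in leaf 5 and 0.67 in leaf 4 (1.57 ± 0.35, adjusted p = 0.00147), and chn1 2.69 and 1.15 (1.54 ± 0.40, adjusted p = 0.00794). CNR7 and PYL5 differed by 2.95 ± 0.55 (adjusted p = 0.000161) and 2.65 ± 0.78 (adjusted p = 0.0245). PR-5 and wip1 were higher after ZmPep3 in both leaves and their differences between the leaves did not pass the test (1.14 and 0.52, adjusted p = 0.229 and 0.701). The additional sheath removal was made in leaf 4 alone, so it cannot be told apart from leaf age in these differences.

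Between leaf 5 and leaf 6, the genes that differed included members of the terpene branch. TPS3 had log2 fold changes of 0.47 in leaf 5 and -1.81 in leaf 6 (difference 2.28 ± 0.43, adjusted p = 0.00238), TPS2 -0.13 and -1.86 (1.73 ± 0.38, adjusted p = 0.0106), and dxs2 0.17 and -1.81 (1.97 ± 0.38, adjusted p = 0.00269). TPS3 had 7.87 to 20.1 CPM (median 12.0) after ZmPep3, against 29.4 to 54.8 CPM (median 48.8) after HAC in leaf 6. In that leaf the 3 genes were lower after ZmPep3 than after HAC, where leaf 5 showed no call. For tps10 the values were -0.17 in leaf 5 and -1.58 in leaf 6, and the difference did not pass the test (1.42 ± 0.68, adjusted p = 0.424). vp14 was higher after ZmPep3 in leaf 5, at 1.56, and lower in leaf 6, at -1.25 (difference 2.81 ± 0.67, adjusted p = 0.0236). HAK25 and 4CL were higher after ZmPep3 in both leaves and more so in leaf 5, by 0.90 ± 0.19 (adjusted p = 0.00863) and 0.69 ± 0.18 (adjusted p = 0.0454). Values went the other way in PER42 (difference -1.24 ± 0.32, adjusted p = 0.0464) and in CER1, a wax synthesis gene (-2.18 ± 0.49, adjusted p = 0.0141). CER1 was at -0.72 in leaf 5 (adjusted p = 0.107) and at 1.46 in leaf 6.

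**Figure D5:**
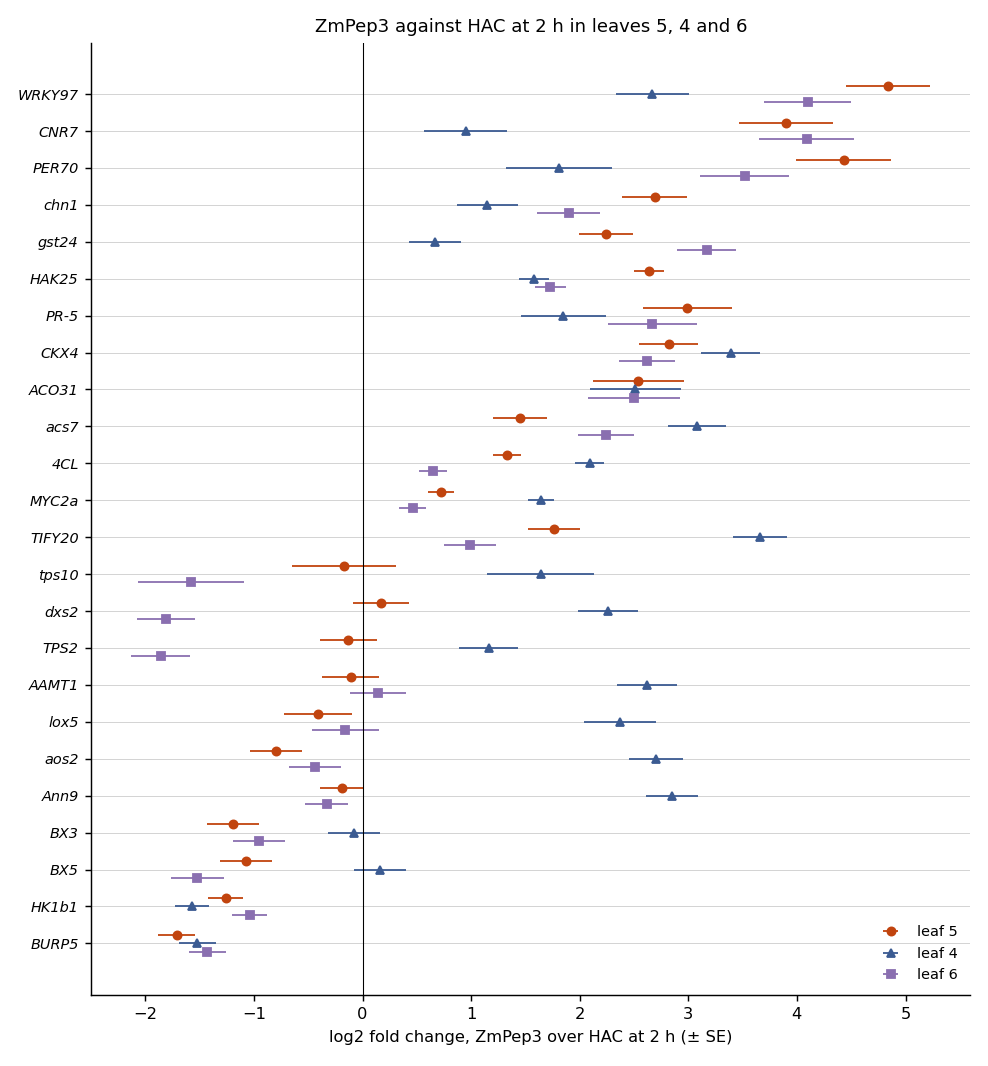
Log2 fold change of ZmPep3 over HAC at 2 h in leaf 5 (circles), leaf 4 (triangles) and leaf 6 (squares), with bars of 1 SE, for 24 genes named in the text. WRKY97 and PR-5 are above 0 in all leaves, aos2 and AAMT1 are far above 0 in leaf 4 and not in leaves 5 and 6, and TPS2 and dxs2 are far below 0 in leaf 6, at -1.86 and -1.81.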

How the data were processed

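RNA was read from 72 whole-leaf samples as DNBSEQ libraries. Per the submitters' processing notes, the authors used Bowtie2 and RSEM with the assembly B73 RefGen_v4, with no versions given. The deposited tables give RSEM expected counts, which the authors left unscaled, and FPKM, which the authors scaled to gene length and library size. In the expected counts, 11.09% of values above 0 were not whole (tolerance 1e-06), since RSEM divides reads among similar genes, and strand is not stated. Of 43547 entries, 11312 were blank in every library and left out. Names came from a RefSeq gene table (Zm-B73-REFERENCE-NAM-5.0) that held 30403 of the 32235 genes (99.74% of counts), 2532 with a name. As its assembly is not that of the files, no coordinates or sequences are given.

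Expected counts were rounded to whole numbers, filtered with filterByExpr and scaled by TMM in edgeR 4.0.16 (R 4.3.3). A robust quasi-likelihood model had 1 coefficient for each of the 12 groups (common dispersion 0.0631). Each contrast was tested by edgeR's quasi-likelihood F test, p-values were adjusted by Benjamini and Hochberg over all 25558 genes, and 0.05 was the threshold. The log2 fold change is ZmPep3 over HAC with ± SE, and 95% intervals are given for most leaf 5 differences that did not pass. The intervals are not adjusted for the number of genes, so 1 can leave out 0 in a gene that did not pass, as in bx1. CPM of single genes used TMM-scaled library sizes, while CPM summed over a list used total counts without TMM. FPKM only set levels of different genes side by side. The p-values rest on the spread between the 6 biological replicates within groups, estimated over all 12 groups together. Differences between leaves were tested as a difference of contrasts in the same fit. On simulated counts for leaf 5 ZmPep3 against HAC (25359 genes, 200 of them changed), 81% of 2-fold and 95% of 4-fold changes were recovered. Of 184 calls, 8 were false. The changed genes were drawn only from those above a minimum expected count, and were far fewer than the 26.2% called in the data. No library set apart from its group was simulated, so the rates hold for that setting only.

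The comparison, the 42 gene lists and the genes named were chosen with earlier results of these data known, so lists are given as counts and medians beside those of all genes. The naming rule first took the 15 largest rises and falls of named genes. Each had to have no overlap and a mean of at least 5 CPM in the higher group. The rule added up to 3 genes a list by smallest adjusted p, and a panel of genes known from earlier results of these data. The last genes were the 3 largest in each direction of each leaf difference. Which of all these genes the text describes was chosen after their values were seen. Other list members named in the text, such as bx2 and bx8, were also chosen then. The alternatives were DESeq2 size factors in edgeR, the DESeq2 1.42.0 Wald test, other filters on low counts, a replicate block, a fit of the groups of a contrast alone, no ZmPep3 libraries 1 and 6, and each of the 12 libraries left out singly, with dispersions kept from the full fit.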

Additional observations from a re-analysis of the deposited data

Results flagged for a closer look

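In 168 groups of 6 libraries (84 genes after ZmPep3 and after HAC), 18 libraries stood apart from the other 5 of their group by a gap that, divided by the group's range, was above Dixon's 95% critical value. For normally distributed values, chance alone flags about 1 group in 20. The CPM were not put on a log scale and the genes share the same libraries, so that rate need not hold here. ZmPep3 library 4 was the highest of its group in geb1 (277 CPM), PER70 (57.9 CPM), PER42 (1693 CPM), opr1 (153 CPM), aox3 (32.5 CPM) and CNR7 (98.9 CPM). Other ZmPep3 libraries were highest in MYC2a (library 2, 272 CPM), MYB112 (library 3, 56.4 CPM), CYP92C5 (library 1, 310.1 CPM) and vp14 (library 6, 28.7 CPM), and library 5 was lowest in ACO31 (66.0 CPM). HAC library 6 was highest in rbohC (84.1 CPM), CYP92C5 (413 CPM) and ARF10 (84.3 CPM). HAC library 5 was highest in CDPK1 (40.4 CPM) and LOC100285015 (40.1 CPM), and HAC library 3 in aox3 (1.70 CPM) and phytase2 (40.3 CPM). These libraries were kept in all the main tests. Fits without 1 library were made only for ZmPep3 against HAC in leaf 5. They were not made for the leaf differences or the comparisons over control, so the part of a single library in those was not tested.

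The ZmPep3 over HAC log2 fold change differed between leaf 5 and leaf 4 in 38 of the 84 genes, and in 7.02% of all tested genes. The difference itself was tested (edgeR's quasi-likelihood test, adjusted p under the threshold). The 84 genes were chosen after their values were seen, some of them for a large leaf difference. Their count is therefore no measure of how often leaves differ. Leaf 5 minus leaf 4 was above 0 in WRKY97 (2.16), bHLH94 (2.09), WAK-RLK2 (1.10), CDPK1 (0.89), PYL5 (2.65) and COL8 (0.85). It was also above 0 in chn1 (1.54), geb1 (2.58), PER70 (2.62), aox3 (2.22), gst24 (1.57), HAK25 (1.06), incw1 (1.00), CNR7 (2.95) and LOC100282584 (7.55). It was below 0 in aos2 (-3.5), opr7 (-0.92), lox5 (-2.78), TIFY20 (-1.90), TIFY28 (-1.79), TIFY1 (-2.67), TIFY29 (-3.99) and MYC2a (-0.92). Of the volatile genes it was below 0 in 5, with TPS2 at -1.29, CYP92C5 at -1.85, AAMT1 at -2.73, AAMT3 at -1.29 and dxs2 at -2.09. Of the benzoxazinoid genes it was below 0 in 4, with BX3 at -1.11, BX4 at -1.10, BX5 at -1.23 and Bx7 at -0.76. The others below 0 were acs7 (-1.64), 4CL (-0.76), rbohC (-0.71), NIP2-1 (-0.66), phytase2 (-2.86) and Ann9 (-3.04).

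Between leaf 5 and leaf 6, 8 of the 84 genes differed by the same test, and 0.591% of all tested genes. The same limit of choice applies. Leaf 5 minus leaf 6 was above 0 in TPS2 (1.73), TPS3 (2.28), dxs2 (1.97), vp14 (2.81), 4CL (0.69) and HAK25 (0.90), and below 0 in PER42 (-1.24) and CER1 (-2.18).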

How the results depend on the processing

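The count of genes that differed between ZmPep3 and HAC in leaf 5 was 6691, with 3735 higher. It was 6552 (3856 higher) with DESeq2 size factors, 6864 (3459 higher) without a filter, 6672 at a mean of 1 CPM, 7153 without ZmPep3 libraries 1 and 6, 5661 (3546 higher) in a fit of the 2 groups alone and 6888 (4001 higher) with the DESeq2 Wald test. It was 2338 when a 2-fold change was also required, and with 1 library left out it ran from 5270 (without ZmPep3 library 4) to 7068 (without ZmPep3 library 6). For leaf 5 against leaf 6 the count of 151 became 251 without ZmPep3 libraries 1 and 6, 278 in a fit of the groups alone and 302 with the DESeq2 Wald test, and the cause was not tested. The split of HAC against control, 2452 higher and 1856 lower, became 2599 and 1445 without a filter.

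A replicate block gave 6787 genes for ZmPep3 against HAC in leaf 5, and 168 for leaf 5 against leaf 6. The numbers were not taken as pairs, since the 6 pairs of same-numbered ZmPep3 and HAC libraries had residual correlations of -0.135 to 0.041, and 1 of the ZmPep3 libraries correlated best with its own number.

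Of the 84 genes tested for this, 68 passed the threshold, and the 5 whose call depended on a setting are given with their values in the text (aos2, TIFY1, bx2, Bx7 and NIP2-1). TIFY29 passed in a fit of the 2 groups alone (0.69, adjusted p = 0.0495). Signs changed in 8 genes that were not called. Without ZmPep3 libraries 1 and 6 the log2 fold changes became 0.17 in MPI, 0.03 in opr7, 0.24 in tps10, 0.11 in TPS2, -0.04 in CYP92C5, 0.00 in AAMT1 and -0.50 in dxs2. With 1 library left out they ran from -0.16 to 0.02 in opr7, -0.45 to 0.03 in tps10, -0.27 to 0.00 in TPS2, -0.06 to 0.25 in CYP92C5, -0.20 to 0.02 in AAMT1, -0.21 to 0.03 in Igl and -0.08 to 0.36 in dxs2. Genes near 1 CPM, such as PepR1, had wide intervals at this depth.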
